A study of Mus musculus with 12 samples.

Results

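Immediate-early and calcium-responsive genes were followed in islets of mice that overexpressed sorcin, a calcium-binding protein encoded by Sri. The set holds 35 genes, and its members were all probes named for one of them in the intensity table or, for the same probe, by the updated symbol in the authors' deposited table. This gave 59 of the 45281 probes of the array, for 34 of the 35 genes, and Dusp5 had no probe. Of these probes, 37 were detected (detection p under 0.05) on at least 6 of 12 arrays and were tested, among 18315 tested probes in all. They measured 27 genes, and a gene with several tested probes is represented below by its brightest one.

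The tested mice were SRI-tg10 mice, which carry 10 copies of a transgene that a tetracycline-responsive promoter drives, encoding sorcin together with luciferase, and a transactivator expressed from the rat insulin promoter, active in beta cells. They were set against littermate controls whose own transgene status the labels do not state. All 12 were male C57BL/6 mice of 8 weeks, 6 in each group, on a diet of 60% fat and on doxycycline at 500 mg/L in drinking water for 4 weeks, from 4 weeks of age. The series' design text gives doxycycline to both groups, while the labels' treatment text names only SRI-tg10 mice for it. Islets were isolated with collagenase and each mouse gave 1 array, whose title carries a letter, A or B, of unstated meaning that covers 3 mice of each group.

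Immediate-early genes are transcribed within minutes of a stimulus without new protein synthesis, through factors that are already present, chiefly CREB at the cAMP response element (CRE) and SRF with its ETS-family partners at the CArG box. In beta cells, glucose and hormones that raise cAMP open calcium channels or activate protein kinase A and the ERK kinases, and so induce Fos, Egr1, the Nr4a receptors and Npas4. The products are transcription factors that switch on later genes, and phosphatases and repressors that end the signal.

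RefSeq promoter sequences (GRCm38.p6) were available for 26 of the 35 genes. Of these, 5 are shown because their genes carry results below and their promoters hold marked elements, which not all members have. Each line holds the 250 bases before the transcription start, 5′ to 3′ on the strand of the gene. Capitals mark the CRE core TGACG, the full CRE TGACGTCA, the EGR site GCGNGGGCG and the CArG box, where they read on the printed strand. Fos lies at chr12:85473640-85473889 (plus strand), Junb at chr8:84978749-84978998 (minus), Dusp1 at chr17:26508473-26508722 (minus), Zfp36 at chr7:28379229-28379478 (minus) and Btg2 at chr1:134079156-134079405 (minus).
Fos: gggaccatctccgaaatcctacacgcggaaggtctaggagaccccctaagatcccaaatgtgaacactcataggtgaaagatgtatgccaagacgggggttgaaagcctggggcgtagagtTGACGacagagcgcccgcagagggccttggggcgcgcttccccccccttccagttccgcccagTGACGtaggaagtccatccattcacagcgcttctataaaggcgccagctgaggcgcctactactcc
Junb: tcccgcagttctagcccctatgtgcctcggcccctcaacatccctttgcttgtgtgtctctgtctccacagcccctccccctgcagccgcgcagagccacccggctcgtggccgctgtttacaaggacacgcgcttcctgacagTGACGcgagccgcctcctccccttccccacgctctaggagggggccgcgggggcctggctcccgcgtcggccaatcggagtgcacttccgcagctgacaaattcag
Dusp1: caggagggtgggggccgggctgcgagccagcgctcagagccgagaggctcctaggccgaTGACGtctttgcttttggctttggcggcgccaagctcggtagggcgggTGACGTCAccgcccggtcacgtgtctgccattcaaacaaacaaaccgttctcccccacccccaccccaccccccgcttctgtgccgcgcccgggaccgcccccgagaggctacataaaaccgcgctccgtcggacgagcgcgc
Zfp36: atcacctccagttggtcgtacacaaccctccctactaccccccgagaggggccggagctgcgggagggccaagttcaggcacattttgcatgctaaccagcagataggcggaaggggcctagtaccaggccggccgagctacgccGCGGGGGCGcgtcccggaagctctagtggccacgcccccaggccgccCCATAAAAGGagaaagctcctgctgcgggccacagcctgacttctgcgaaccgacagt
Btg2: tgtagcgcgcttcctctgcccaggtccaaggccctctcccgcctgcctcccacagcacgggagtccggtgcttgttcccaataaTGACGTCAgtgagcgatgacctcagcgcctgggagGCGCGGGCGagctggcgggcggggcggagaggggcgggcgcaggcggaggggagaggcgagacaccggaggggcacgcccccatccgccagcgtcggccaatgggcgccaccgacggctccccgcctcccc

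Counted on both strands, the CRE core TGACG was in the promoters of 16 of 26 genes (61.5%), against 17.8% of 32851 RefSeq promoters of the same length. The full CRE, which contains that core, was in those of Dusp1 and Btg2, 7.69% of the members against 1.55% of all promoters. The EGR site GCGNGGGCG was in 9 member promoters (34.6%, against 4.7% of all), and the CArG box in 4 (15.4%, against 1.47%), which were those of Egr2, Srf, Dusp5 and Zfp36. The AP-1 site TGANTCA was in 0 of 26, against 6.75% of all, and the letters TATAAA in 4 (15.4%, against 12.4%). A gene with several RefSeq starts, as Egr2, counted once if any of its promoters held the letters. The share over all promoters was counted per promoter, so the shares differ in unit. No promoter was available for Fosl1, Egr1, Egr3, Ier2, Dusp4, Crem, Sik1, Arc and Gem. These matches describe letters in a window and were not tested as sites. Bases further upstream than the 250 were not searched. A gene without a match here, as Fos for the CArG box, may therefore carry one outside the window.

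Sri stood between 12.72 and 14.96 in SRI-tg10 islets, against 9.60 to 10.09 in control islets, on the normalized log2 scale used for every level below, so each array fitted its title. SRI-tg10 replicate 4 had the lowest of the SRI-tg10 levels. Control replicate 5 stood apart in another way, with the fewest detected probes (16271, where the others had up to 20094 of 45281) and the weakest correlation with the rest (a mean of 0.934, against 0.954 for the next array). Many results below are also given without control replicate 5, and the count of higher members also without both arrays. In a deposited matrix of normalized values, 10 of 12 columns held the values of another sample's array, 6 of them across groups, so that matrix was not used.

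No immediate-early gene differed between the groups past the threshold. Of 27 measured members, 0 were called with limma (adjusted p under 0.05 over all 18315 probes), where 4 of all probes were, 0.0218%. Dusp4 alone had an unadjusted p under 0.05 with limma (3.70% of members), against 4.26% of all probes. The groups overlapped on all 37 tested member probes, as they did on all but 0.169% of probes. The smallest adjusted p of a member was 0.922 with limma, and the largest fold was 1.34, for Dusp4. The 95% interval of the difference contained 0 for 26 of 27 members and lay within a log2 difference of 1 either way for 20. The distance from the difference to either bound was 0.33 to 1.60 with a median of 0.63, so for most members the 12 arrays bound a change without showing that there was none.

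**Figure D1:**
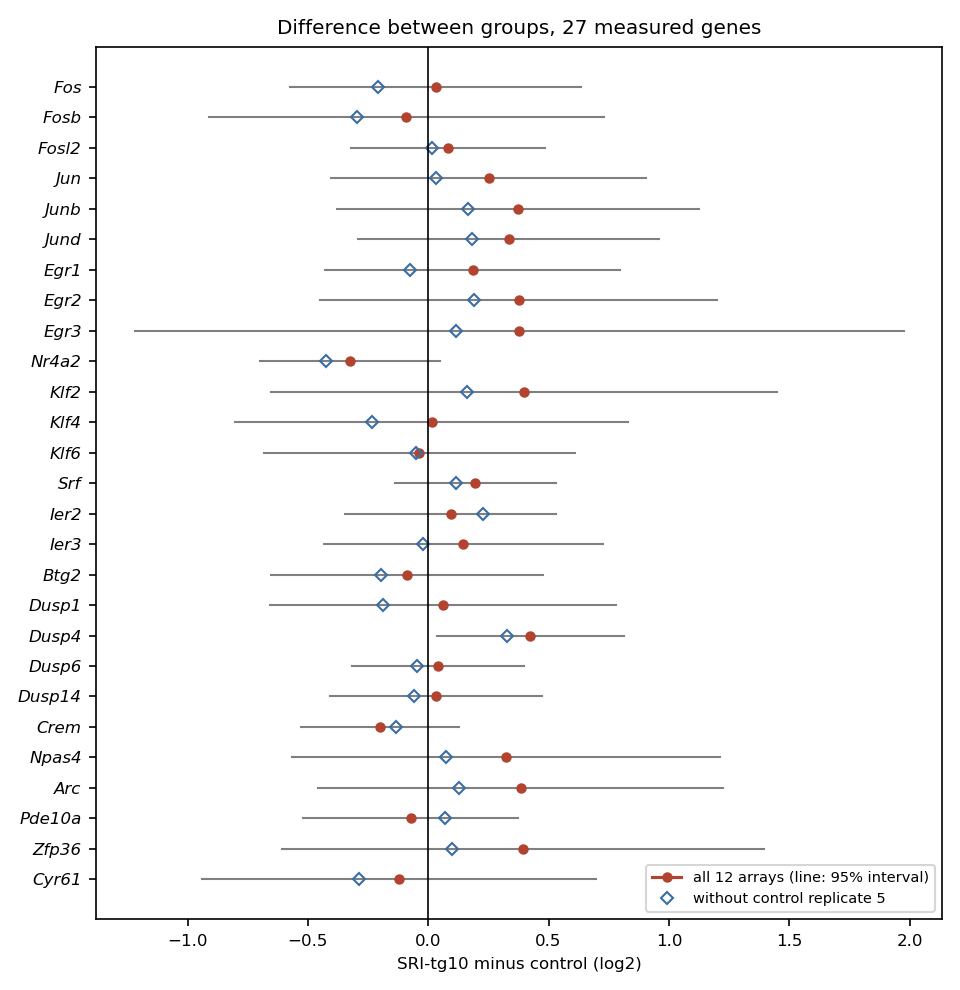
Difference between SRI-tg10 and control islets (x axis, log2) for each of the 27 measured genes (rows). Red points and grey lines are the difference and its 95% interval from all 12 arrays, and open blue diamonds are the difference without control replicate 5. The interval of Dusp4 is the only one that leaves out 0, and 14 of 27 diamonds lie above 0, against 20 of 27 points.

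Among the AP-1 subunits, which pair as Fos and Jun proteins to bind DNA, 5 of 6 measured members had a higher mean in SRI-tg10 islets and 0 were called. Without control replicate 5 it was 4 of 6. Fos had log2 levels of 13.79, 13.02, 13.49, 13.45, 13.63 and 12.84 in SRI-tg10 replicates 1 to 6, against 13.55, 13.60, 13.01, 13.88, 12.12 and 13.86 in control replicates 1 to 6. Both the highest array, control replicate 4, and the lowest, control replicate 5, were controls, and the SRI-tg10 arrays all lay between them. The groups differed by 0.03 ± 0.28 (SE, n = 6 each; limma adjusted p = 0.984), and it was -0.21 without control replicate 5.

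Junb, a Jun protein with weaker activating function than Jun, stood at 10.75, 10.13, 10.72, 10.89, 10.99 and 9.72 in SRI-tg10 replicates 1 to 6, against 10.13, 10.88, 9.23, 10.52, 9.11 and 11.09 in control replicates 1 to 6. Its promoter is shown above with the CRE core. Controls again held both ends of the range, and replicates 3 and 5 of the controls were lower than every SRI-tg10 array. Its mean differed by 0.37 ± 0.35 (SE; limma adjusted p = 0.922), or 0.16 without control replicate 5.

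The groups overlapped for the remaining AP-1 genes too. Jun averaged 10.85 ± 0.50 in SRI-tg10 islets and 10.60 ± 0.67 in control islets (SD, n = 6 each), a difference of 0.25 ± 0.30 (SE). The Jun difference was 0.03 without control replicate 5. Jund averaged 9.12 ± 0.63 in SRI-tg10 islets and 8.79 ± 0.49 in control islets (difference 0.33 ± 0.29 SE), with SRI-tg10 replicate 5 at 10.14 above the highest control at 9.43. Without that array the difference was 0.13. Fosb, induced strongly by calcium in neurons, differed by -0.09 ± 0.38 and Fosl2 by 0.08 ± 0.19. Without control replicate 5 these were -0.30 and 0.01. The further probe named Fosb in the intensity table is Hipk3 by the authors' updated symbol, so its values are not read as Fosb. Fosl1 was detected on 0 of 12 arrays.

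**Figure D2:**
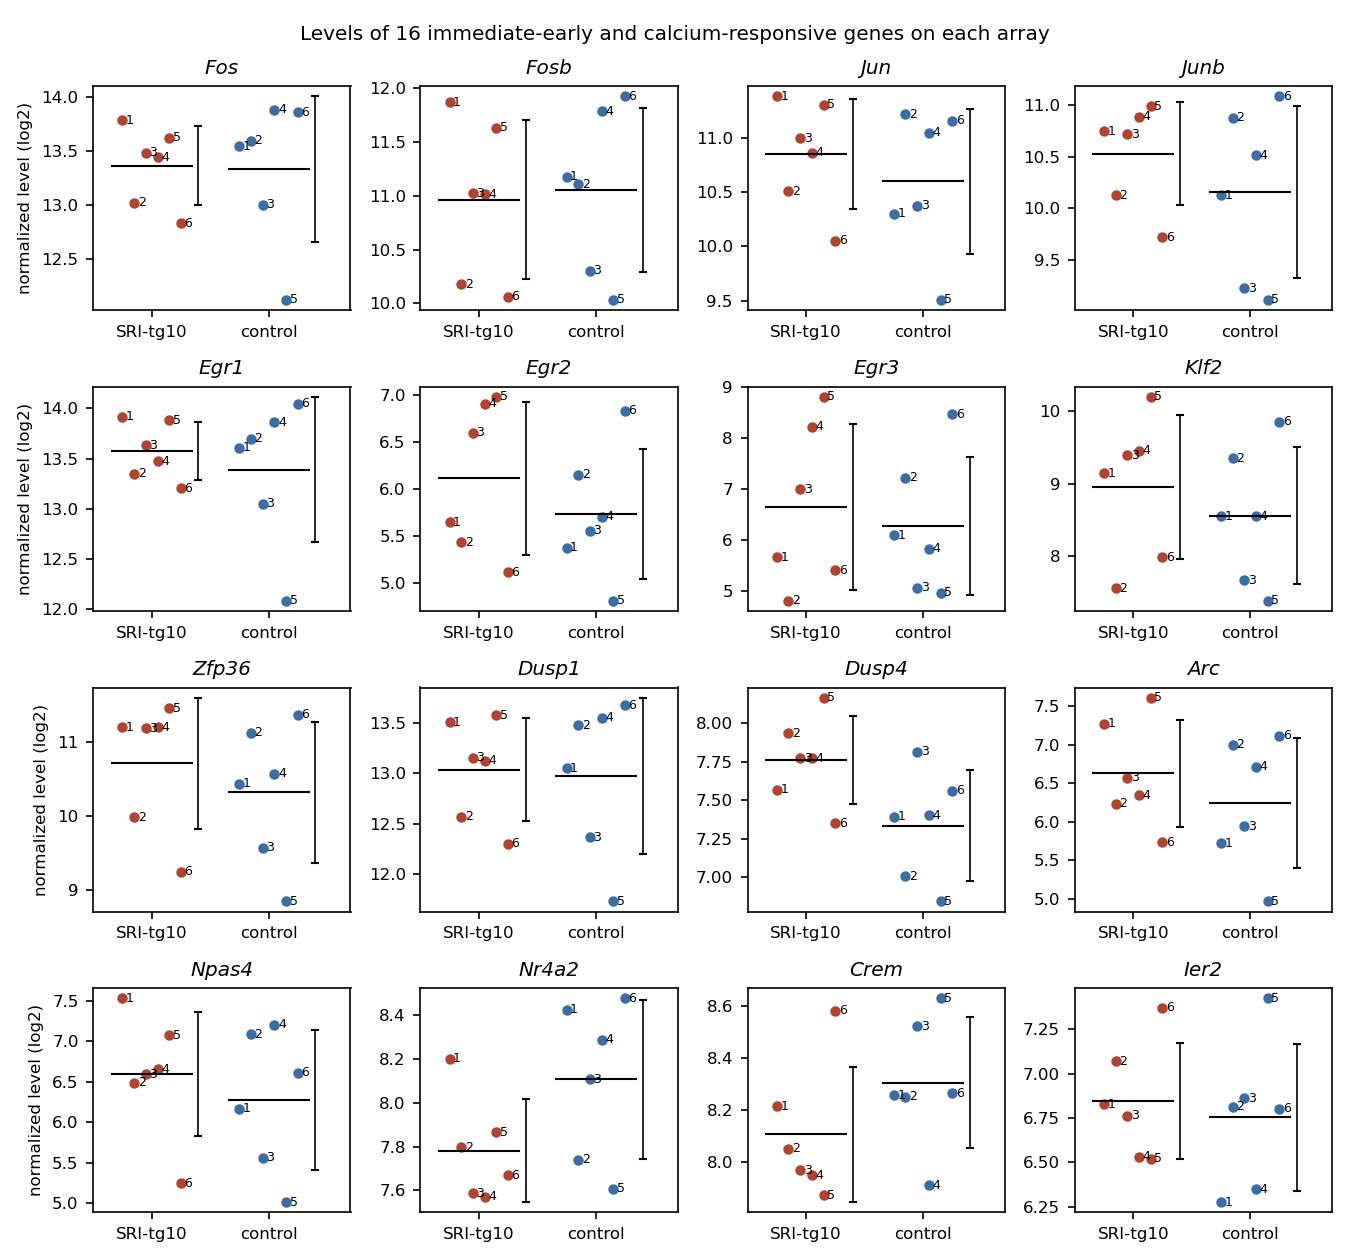
Normalized log2 level (y axis, a scale of its own in each panel) of 16 genes on each array, SRI-tg10 in red on the left and control in blue on the right, numbered by replicate. Horizontal lines are group means and brackets are the SD of 6 arrays. In most panels control replicate 5 is the lowest point, while Crem and Ier2 have it as the highest.

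The EGR family are zinc-finger factors that bind GC-rich sites and are read out as markers of ERK activity. All 3 measured members had a higher mean in SRI-tg10 islets (2 of 3 without control replicate 5), and 0 were called. Egr1 had levels of 13.92, 13.35, 13.63, 13.47, 13.88 and 13.20 in SRI-tg10 replicates 1 to 6, against 13.61, 13.70, 13.05, 13.86, 12.09 and 14.05 in control replicates 1 to 6. The SD was 0.29 in SRI-tg10 islets and 0.72 in control islets, or 0.37 in control islets without replicate 5. The groups differed by 0.18 ± 0.29 (SE; limma adjusted p = 0.946) and by -0.08 without control replicate 5.

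Egr3, a calcineurin-responsive member in lymphocytes, varied more on its brightest probe than any other member. It stood at 5.67, 4.82, 7.00, 8.22, 8.81 and 5.41 in SRI-tg10 replicates 1 to 6, against 6.09, 7.22, 5.07, 5.83, 4.97 and 8.46 in control replicates 1 to 6, a 15.9-fold range. It was detected on 5 of 6 SRI-tg10 and 4 of 6 control arrays. Its difference was 0.38 ± 0.74 (SE), which was -0.05 without SRI-tg10 replicate 5, -0.30 among letter A arrays and 1.06 among letter B arrays. A dimmer probe of Egr3, detected on 6 of 12 arrays, gave -0.22 ± 0.21 (SE). Its SD within groups was 0.39 and its range 2.55-fold, so the wide variation was seen on the brighter probe only. The authors' updated symbol names the dimmer probe Egr3 and gives the brighter one no name. Egr2 followed the same arrays, with its highest levels in SRI-tg10 replicates 5 and 4 (6.98 and 6.91) and control replicate 6 (6.84). The Egr2 difference was 0.38 ± 0.38 (SE), or 0.19 without control replicate 5. Egr4 was detected on 2 of 12 arrays and was not tested.

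NR4A orphan nuclear receptors are induced by cAMP and calcium and include Nr4a1, a well-known beta cell immediate-early gene. The Nr4a1 probe was not well above background on any of the 12 arrays, at 4.86, 4.59, 4.76, 4.81, 4.55 and 4.60 in SRI-tg10 replicates 1 to 6, against 4.57, 4.65, 4.69, 4.56, 4.48 and 4.51 in control replicates 1 to 6, and the 3 probes of Nr4a3 were likewise detected on 0. This says only that these probes carried no readable signal here. Nr4a2 was the measured member, at 7.57, 7.73 and 8.20 in SRI-tg10 islets and 7.61, 8.20 and 8.48 in control islets (lowest, median and highest of 6). It was the lowest difference of the set, with 5 of 6 SRI-tg10 arrays below the control mean. The difference was -0.33 ± 0.17 (SE, unadjusted p = 0.0817, adjusted p = 0.922 with limma), and it kept its sign in all 24 alternative settings, from -0.43 to -0.22. Its unadjusted limma p was under 0.05 in 5 of them, among them 0.0198 without control replicate 5 (adjusted p = 0.994), and its smallest adjusted p was 0.678.

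Of the Krüppel-like factors and SRF, 3 of 4 had a higher mean in SRI-tg10 islets (2 of 4 without control replicate 5) and 0 were called. Klf2, a factor of endothelial and T cell quiescence, had 7.55, 9.27 and 10.20 in SRI-tg10 islets, against 7.38, 8.55 and 9.85 in control islets (lowest, median and highest of 6). The groups shared nearly the whole of that range. Its difference was 0.40 ± 0.49 (SE) and was 0.16 without control replicate 5. Klf4 differed by 0.01 ± 0.38 (-0.23 without control replicate 5) and Klf6 by -0.04 ± 0.30. Srf, the factor that binds the CArG box, was among the steadier members and differed by 0.20 ± 0.16 (SE), higher in all 24 alternative settings.

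The IER and growth-arrest genes gave 2 higher means and 1 lower (1 higher and 2 lower without control replicate 5), with 0 called. Ier3, an anti-apoptotic regulator, differed by 0.15 ± 0.27 and Ier2 by 0.09 ± 0.20 (SE). Without control replicate 5 these were -0.02 and 0.23. Btg2, an antiproliferative cofactor induced by p53, had levels of 6.36, 6.08, 6.21, 5.47, 5.25 and 5.53 in SRI-tg10 replicates 1 to 6, against 5.88, 6.81, 6.14, 5.88, 5.37 and 5.35 in control replicates 1 to 6. In both groups replicates 1 to 3 carry the letter A and replicates 4 to 6 the letter B, and every letter A array was above every letter B array. That margin was narrow, with control replicate 1 (letter A) at 5.881 and control replicate 4 (letter B) at 5.878. Between the groups Btg2 differed by -0.09 ± 0.26 (SE). Ier5 was detected on 1 of 12 arrays.

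Dual-specificity phosphatases are the feedback arm of the response and strip phosphates from ERK, JNK and p38. All 4 measured members had a higher mean in SRI-tg10 islets, but 1 of 4, Dusp4, without control replicate 5, and 0 were called. Dusp4, a nuclear phosphatase of ERK, stood at 7.57, 7.94, 7.77, 7.77, 8.17 and 7.35 in SRI-tg10 replicates 1 to 6, against 7.39, 7.01, 7.82, 7.40, 6.84 and 7.56 in control replicates 1 to 6. All 6 SRI-tg10 arrays were above the control mean of 7.34, and the groups overlapped. The difference was 0.42 ± 0.18 (SE, 95% interval 0.04 to 0.81, unadjusted p = 0.0346, adjusted p = 0.922 with limma). It was 0.35 ± 0.23 within letter A and 0.49 ± 0.29 within letter B.

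The further tested Dusp4 probes ran the same way, at 0.43 ± 0.24 and 0.16 ± 0.14 (SE), and were detected on 7 and 6 of 12 arrays. The authors' updated symbol names both of them Dusp4 and gives the brightest probe no name. The difference stayed between 0.33 and 0.52 on leaving out any 1 array, with the lowest value without control replicate 5. Its unadjusted limma p was under 0.05 in 14 of 24 alternative settings. In the authors' deposited table this probe had a log2 fold change of 0.24 (unadjusted p = 0.183, adjusted p = 0.862).

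Dusp1, the most broadly induced of these phosphatases, stood at 13.50, 12.57, 13.15, 13.12, 13.57 and 12.30 in SRI-tg10 replicates 1 to 6, against 13.05, 13.47, 12.37, 13.55, 11.73 and 13.67 in control replicates 1 to 6. Its promoter, shown above, holds the full CRE. Its highest and lowest arrays were both controls, and the groups differed by 0.06 ± 0.33 (SE; limma adjusted p = 0.977), or -0.19 without control replicate 5. Dusp6, a cytoplasmic phosphatase of ERK, differed by 0.04 ± 0.17 and Dusp14 by 0.03 ± 0.20 (SE), and without control replicate 5 by -0.05 and -0.06.

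Of the calcium and cAMP responders, 2 of 4 measured had a higher mean in SRI-tg10 islets (3 of 4 without control replicate 5) and 0 were called. Crem, which encodes CREB-like activators and the inducible repressor ICER, had a lower mean on all 3 of its tested probes, at -0.20 ± 0.15, -0.40 ± 0.20 and -0.18 ± 0.20 (SE), with unadjusted limma p-values of 0.212, 0.0639 and 0.389. These probes share a gene and an RNA and are not separate evidence. Npas4, a neuronal and beta cell factor induced by calcium, differed by 0.32 ± 0.41. Arc, a synaptic capsid-like protein, differed by 0.38 ± 0.39 and the cyclic nucleotide phosphodiesterase Pde10a by -0.07 ± 0.21 (SE). Without control replicate 5, Npas4, Arc and Pde10a differed by 0.07, 0.13 and 0.07, and Crem by -0.13 on its brightest probe. Sik1, a kinase that holds back the CREB coactivators, and Gem, a small GTPase that restrains calcium channels, were detected on 3 and 1 of 12 arrays.

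The last members act beyond transcription. Zfp36 (tristetraprolin), which marks AU-rich mRNAs for decay, had 9.24, 11.19 and 11.46 in SRI-tg10 islets, against 8.84, 10.50 and 11.37 in control islets (lowest, median and highest of 6). In SRI-tg10 islets 4 arrays were bunched near the top, and in control islets the levels were spread through the range. Its difference was 0.39 ± 0.47 (SE), or 0.10 without control replicate 5. Cyr61, a secreted matrix-associated protein, differed by -0.12 ± 0.38, and by 0.10 ± 0.21 on its other tested probe (SE).

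Across the set, 20 of 27 members (74.1%) had a higher mean in SRI-tg10 islets, against 49.3% of all tested probes, and the median difference was 0.09, against -0.0036 over all probes. The shares differ in unit, since members were counted by gene on the brightest probe and the rest by probe. Counted by probe, 25 of 37 tested member probes were higher. Members share regulators and arrays, so the count by gene is not that of 27 separate observations. The count by gene rested largely on control replicate 5: without that array 14 members were higher and 13 lower, with a median of 0.01. Without it and SRI-tg10 replicate 4, a choice made after seeing the data, 12 were higher and 15 lower, with a median of -0.05. By the authors' deposited table, 9 of the 27 were higher and 18 lower, from -0.41 to 0.26, and the smallest adjusted p of a member in that table was 0.834.

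**Figure D3:**
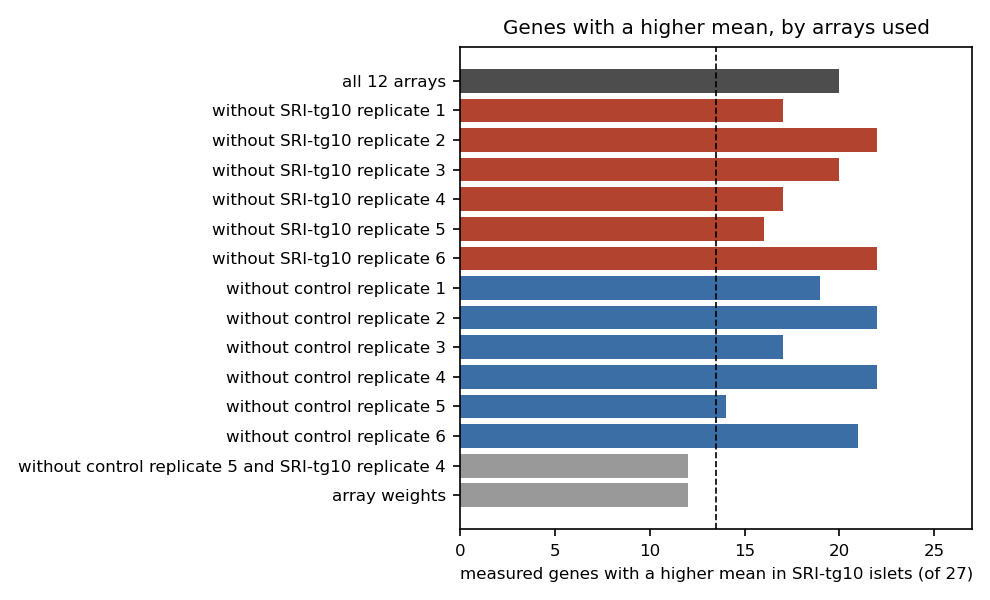
Number of measured genes, of 27, with a higher mean in SRI-tg10 islets (x axis) when all 12 arrays were used, when each array was left out (red SRI-tg10, blue control), and in 2 further settings (light grey). The dashed line marks an even split. The count was 20 with all arrays, 14 without control replicate 5 and 12 with array weights.

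The members varied widely between mice of the same group. The median SD within groups was 0.56 for members, against 0.32 for all tested probes, and 23 of 27 members exceeded that median. The 90th percentile of all probes was 0.555, and 14 members lay above it. Among probes with a mean log2 level above 10 8 of 9 members lay above the 90th percentile of that class (0.382), with a median of 0.59 against 0.20. At levels of 7 to 10 it was 3 of 9, and below 7 it was 5 of 9. Egr3 (SD 1.49), Klf2 (0.97), Zfp36 (0.93), Npas4 (0.82) and Arc (0.77) were the widest members, and Crem (0.26), Srf (0.26) and Dusp6 (0.29) the steadiest.

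Between the highest and lowest of 12 arrays, members differed by 1.69-fold (Crem) to 15.9-fold (Egr3), with a median of 3.67-fold. Without control replicate 5 the median was 2.75-fold. The number of members above the 90th percentile was 11 to 16 of 27 on leaving out 1 array, 13 without control replicate 5, and 9 among letter A arrays alone against 17 among letter B arrays alone.

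**Figure D4:**
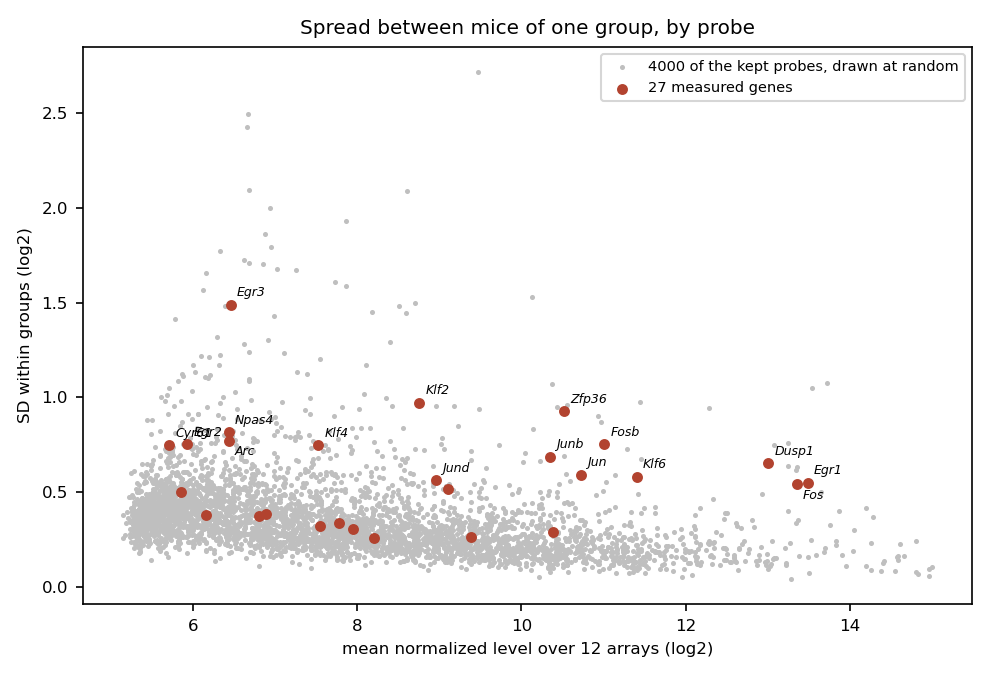
SD within groups (y axis, log2) against the mean normalized level over 12 arrays (x axis, log2). Red points are the 27 measured genes, with names for the wider ones, and grey points are 4000 of the tested probes drawn at random. Fos, Egr1 and Dusp1 lie at the right with SDs of 0.54, 0.55 and 0.65, and Egr3 is the highest red point at 1.49.

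The variation ran through many members on the same arrays. Control replicate 5 was the lowest of 12 arrays for 18 of 27 members, among them Fos, Jun, Junb, Egr1, Dusp1, Zfp36 and Arc, and the highest for Ier2, Crem and Pde10a. SRI-tg10 replicate 5 was the highest for 8, including Egr3, Klf2, Dusp4 and Zfp36, and control replicate 6 for 7, including Egr1, Junb and Dusp1. The share of all tested probes lowest or highest on each array was not counted, and control replicate 5 also had the fewest detected probes. These counts are therefore not read as particular to the members. Of the SRI-tg10 arrays, replicates 5, 1 and 3 had 23, 20 and 19 of 27 members above their 12-array median, replicate 4 had 14, and replicates 2 and 6 had 5 and 3. Of the control arrays, replicates 2 and 6 had 23 and 21, replicate 4 had 14, and replicates 1, 3 and 5 had 9, 8 and 3. Each group thus held arrays with most members high and arrays with most members low. No single array of a group of 6 was set apart from the other 5 by Dixon's test, in 74 groups tested on the 37 probes.

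Crem and Ier2 ran against that order. Crem was highest in control replicate 5 (8.63) and SRI-tg10 replicate 6 (8.58), arrays where most members were low, and lowest in SRI-tg10 replicate 5 (7.87), where most were high. Ier2 was likewise highest in control replicate 5 (7.42) and SRI-tg10 replicate 6 (7.37). All 3 Crem probes had control replicate 5 and SRI-tg10 replicate 6 as their highest arrays. This is a description of 12 arrays, with no test.

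**Figure D5:**
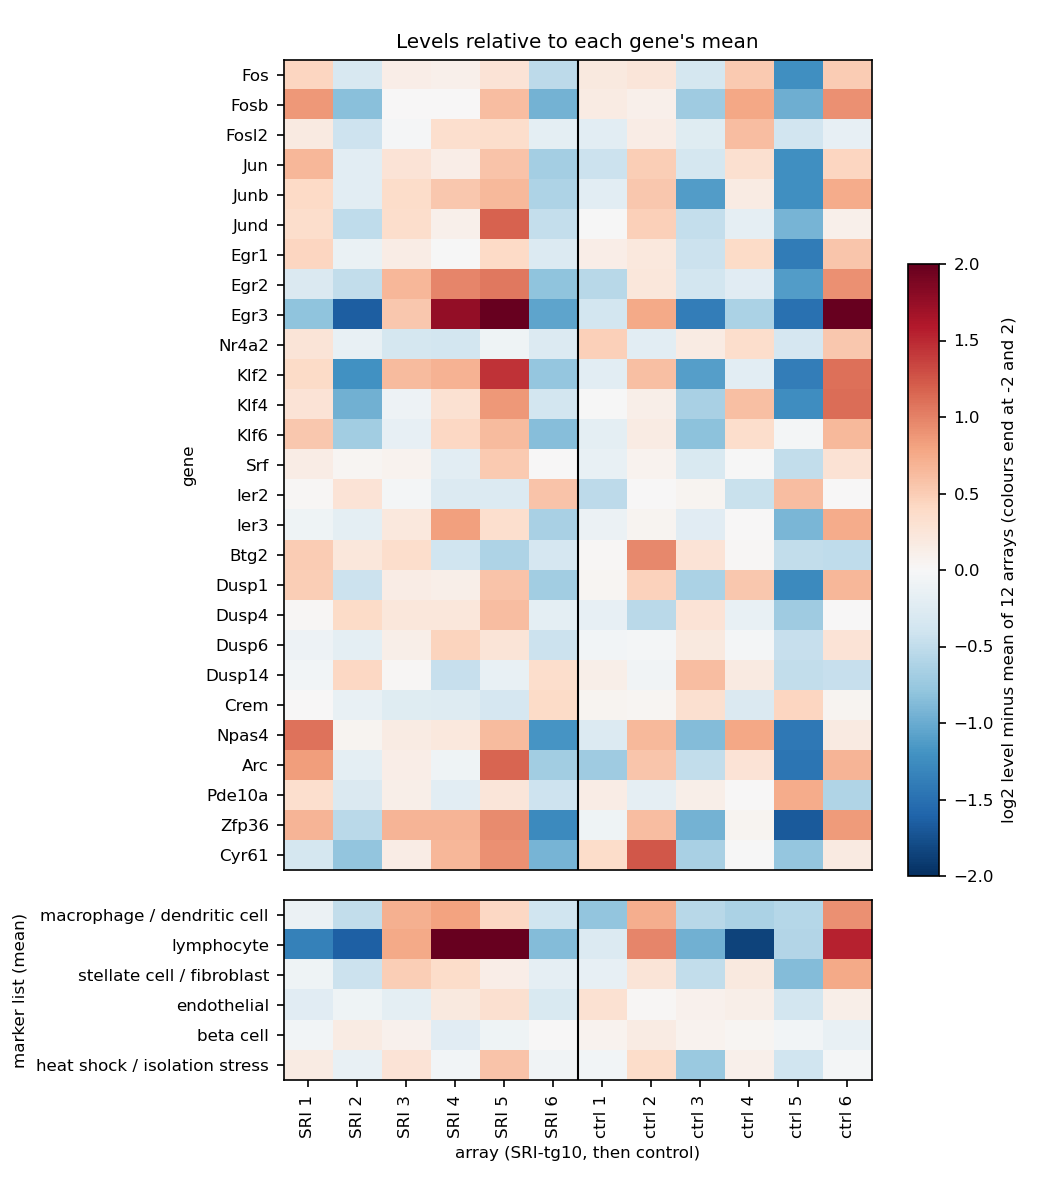
Log2 level minus the mean of 12 arrays (colour) for the 27 measured genes (upper rows) and the mean of marker lists (lower rows) on each SRI-tg10 and then each control array (columns). Most genes are blue in control replicate 5 and red in SRI-tg10 replicate 5 and control replicate 6, and the macrophage and lymphocyte rows are red on the same 5 arrays, SRI-tg10 replicates 3, 4 and 5 and control replicates 2 and 6.

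Markers of other cells moved with part of this variation. The mean of the EGR family was above 0 (its 12-array mean) on 5 arrays, SRI-tg10 replicates 3, 4 and 5 and control replicates 2 and 6. The means of macrophage and of lymphocyte markers were above 0 on exactly those arrays. The EGR mean leans on the brighter Egr3 probe, the widest member (SD 1.49), whose wide variation the dimmer Egr3 probe did not share. Whether the arrays match without that probe was not counted. Egr1 itself ran otherwise, and was higher in SRI-tg10 replicate 1 (13.92) and control replicate 4 (13.86) than in SRI-tg10 replicate 4 (13.47). Other member groups differed too. The AP-1 mean was above 0 on 7 arrays, with SRI-tg10 replicate 1 and control replicate 4 added. The NR4A mean was above 0 on SRI-tg10 replicate 1 and control replicates 1, 3, 4 and 6. All 13 macrophage and dendritic cell markers were measured and had a higher mean in SRI-tg10 islets (median difference 0.17, 0 called with limma; 12 of 13 without control replicate 5), and their summed linear level was 7273 to 20201 in SRI-tg10 islets, against 4955 to 22046 in control islets. Of 10 lymphocyte markers 8 were measured, 6 with a higher mean and 0 called, with sums of 651 to 35094 in SRI-tg10 islets and 650 to 23341 in control islets. Their sums did not follow the list mean on every array. Control replicate 1, with a list mean of -0.28, had a sum of 12507. That was above SRI-tg10 replicates 3 and 5 (4756 and 9568) and control replicate 2 (4321). The part of these cells in the levels of the EGR genes and the other members was not tested. Stellate cell and fibroblast markers shared the sign of the mean of all members on 11 of 12 arrays, and were above 0 on 6 of the 7 arrays where that mean was. The sign was shared on 10 arrays by macrophage, lymphocyte and heat shock genes each, and on 8 by endothelial and duct markers each. Alpha and delta cell markers and acinar markers shared it on 7 each, and beta cell markers on 4. No such count was made for all tested probes or for other gene lists. Control replicate 5, which had the fewest detected probes, was below 0 on every one of these lists. The counts are therefore not read as particular to a cell type. All 8 stellate cell and fibroblast markers were measured, 4 with a higher and 4 with a lower mean and 0 called. Their sums were 3521 to 7426 in SRI-tg10 islets and 2936 to 10600 in control islets, lowest in control replicate 5. The macrophage and endothelial sums were also lowest on that array (4955 and 7696). The part of the stellate markers was not tested either. In whole islets, fewer cells of a type and less RNA per cell cannot be told apart.

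Heat shock genes, which tissue digestion is known to induce, had 4 of 7 measured members higher in SRI-tg10 islets (5 of 7 without control replicate 5) and 0 called. Their sum was 25837 to 30994 in SRI-tg10 islets, against 22864 to 32078 in control islets, and Hspa1a differed by 1.02 ± 0.46 (SE, unadjusted p = 0.0467, adjusted p = 0.922 with limma). Their mean was above 0 on SRI-tg10 replicates 1, 3 and 5 and control replicates 2 and 4, 5 of the 7 arrays where the mean of all members was. Their part was not tested. Beta cell markers were present on every array, with sums of 84247 to 101383 in SRI-tg10 islets and 92503 to 106502 in control islets.

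Genes around the set were likewise not called, and their counts also moved with control replicate 5. Of 42 other genes that activity induces, 33 were measured, 21 with a higher and 12 with a lower mean in SRI-tg10 islets; the median difference was 0.11 and 0 were called with limma. The share higher was 63.6%, against 49.3% of all probes. Without control replicate 5 it was 14 higher and 19 lower, with a median of -0.02. Those with the smallest p were Rgs2 (-1.37 ± 0.53 SE), a brake on Gq signalling, Phlda1 (0.37 ± 0.16), Ier5l (0.33 ± 0.17) and the synaptic scaffold Homer1 (-0.32 ± 0.20), with unadjusted limma p-values of 0.0222, 0.0426, 0.0734 and 0.128. Of 25 upstream kinases and CREB or SRF regulators, 21 were measured, 15 higher and 6 lower (71.4% higher), with a median of 0.09 and 0 called, and without control replicate 5 10 were higher and 11 lower. In that list the CREB coactivators Crtc2 and Crtc3 differed by 0.27 ± 0.15 and 0.42 ± 0.26 (SE). Map2k2, a kinase that activates ERK, differed by 0.21 ± 0.12, and Mapk8, a JNK, by -0.36 ± 0.22 (SE).

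Between the title letters, with the group in the fit, 0 of 27 members were called with limma, where 17 of 18315 probes were, 0.0928%. Letter B had a higher mean for 13 members and a lower one for 14, with a median difference of -0.01, and 46.1% of all probes were higher in letter B. Without control replicate 5 the count was 21 higher and 6 lower (median 0.16), and without control replicate 6 it was 8 higher and 19 lower (median -0.05). An unadjusted p under 0.05 with limma was reached by 1 member, against 16.8% of all probes. It was Btg2, at 5.47 ± 0.22 in letter B and 6.25 ± 0.32 in letter A (SD, n = 6 each), a difference of -0.77 ± 0.16 (SE, adjusted p = 0.111 with limma, and 0.0936 to 0.253 over 16 alternatives). Its letters did not overlap, by the narrow margin given above, as on 1.92% of all probes. Whether the group difference itself differed between the letters was tested as an interaction, which called 0 of 18315 probes with limma (0%), and 427 (2.33%) had an unadjusted p under 0.05. Of the members, 0 did, and their smallest unadjusted limma p was 0.189, for Cyr61.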

How the data were processed

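RNA from islets of 12 mice was hybridised to Illumina bead arrays, 1 array per mouse, per the labels' protocols. The deposited intensity table holds the mean bead intensity of each probe on the linear scale, and from its values these were neither background-subtracted nor normalized. It also holds for each probe a detection p-value, set against the negative controls of its array, per the file headers. The software was GenomeStudio, per the submitters' processing notes, and its version is not stated. The authors' deposited table of their own comparison gives, per the file headers, log2 fold changes with p-values, and a t score that was not used. Its model and weights are not stated, and its direction was taken from Sri.

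In R 4.3.3, limma 3.58.1 was used for all steps. Its neqc function corrected the background (negative controls inferred from detection p-values, offset 16), quantile-normalized the arrays and took log2. Probes detected at p under 0.05 on at least 6 of 12 arrays were kept, 18315 of 45281. For Jund, Klf6, Npas4, Sik1 and a Crem probe the name came from the updated symbol only. The probes that represent Egr3, Dusp4 and Ier2 had no updated symbol, and their names came from the intensity table only. A gene with several kept probes was represented by the one with the highest mean. Groups, title letters and their interaction were compared with limma (lmFit, eBayes), with Benjamini-Hochberg adjustment over all kept probes and an adjusted p under 0.05 as the threshold. The fits were tested on simulated data. Errors are SE of a difference or SD of a group, and the number of arrays limits the precision. A list's mean is that of its genes' log2 levels, each minus its 12-array mean, and its summed level adds the linear values.

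The naming rule accounted for every member, gave each array's level for members with an unadjusted p under 0.05 and for Fos, Egr1, Junb, Nr4a1 and Dusp1 (Egr3 was added after its values were seen), and named up to 4 genes of each further list by smallest p. Replicates were numbered in accession order within a group. The members, lists and tests were chosen with earlier results of these data known. Alternatives changed the filter, background correction, normalization, offset, array weights, the letter as a block and the arrays used. Promoters are those of RefSeq (GRCm38.p6).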

Additional observations from a re-analysis of the deposited data

How the results depend on the processing

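Across 24 alternative settings, 0 members were called between the groups with limma. An unadjusted p under 0.05 was reached by Dusp4 in 14 of them and by Nr4a2 in 5, and by 0 to 2 members in each. Between the letters, likewise 0 were called in 16 alternatives. The median difference between groups was 0.01 (without control replicate 5) to 0.24 on leaving out 1 array, and the count of higher members was 14 to 22. It was -0.04 with array weights, with 12 higher. Of 27 members 11 kept their sign in every setting and 16 changed it in at least 1. The median difference between letters was -0.09 to 0.16 on leaving out 1 array, with 8 to 21 members higher, and array weights gave 20. The number of members above the 90th percentile of SD was 9 among letter A arrays and 11 to 16 on leaving out 1 array. The alternative based on the deposited normalized matrix was not run, because most of its columns hold another sample's array. No paired analysis was possible because each mouse has a number of its own and no number is shared between groups. Over all probes, the letters gave 17 calls, but 38 under array weights, 5 when control replicate 2 or 3 was left out, and 4 to 10 when any 1 SRI-tg10 array was. The other control arrays gave 12 to 19. The groups gave 4 calls, 0 among letter B arrays alone and 3 to 5 otherwise. Members not well above background, such as Nr4a1, cannot be compared at this signal.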

Other observations

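The deposited matrix of normalized values differs from the intensity table in which sample holds which array. Of its 12 columns, named by sample, 2 had a rank correlation of 1 with the array that carries that sample's title in the intensity table, and 10 had it with an array of another sample. Of the 6 columns of SRI-tg10 samples, 3 matched an SRI-tg10 array and 3 a control array. Levels of Sri in the matrix went with the intensity table's titles. A comparison of the immediate-early genes by the matrix's column names would therefore mix the groups.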
